A study of Mus musculus with 5 samples.

Results

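Peaks of open chromatin were examined at 5 genes: Eda, Edar, Edaradd and Eda2r of ectodysplasin signalling, and the related receptor gene Tnfrsf19. The tissues were the ectoderm of distal mouse limbs and forebrain. The data are ATAC-seq peak lists; in this assay a transposase cuts DNA where chromatin is accessible, and a peak marks a place with more cuts than its surroundings. A peak belonged to a gene when its summit, the position of highest signal, lay inside that gene or within 100 kb of it and no other protein-coding gene was nearer. Peaks of the 5 lists that overlapped by at least 1 bp were joined into regions. The 5 genes held 67 regions, of 182778 assigned to any protein-coding gene and 231612 in all. The genes were chosen as genes of the pathway and a related receptor, and not by a measured value. All embryos were of the CD1 stock. Forelimb distal ectoderm of embryonic stage E14.5 had 2 libraries, hindlimb distal ectoderm of that stage 2 and forebrain of stage E13.5 1. No group carried a mutation or treatment in the labels. Ectoderm was lifted from the mesoderm with trypsin and forebrain was treated with collagenase, per the labels' protocols, so that tissue, stage and dissociation cannot be told apart as sources of a difference.

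Ectodysplasin (Eda) is a ligand of the tumour necrosis factor family that is cut from the cell surface by furin. Its Eda-A1 form binds the receptor Edar and its Eda-A2 form binds Eda2r (Xedar). Edar passes the signal through the death-domain adaptor Edaradd and TRAF and TAB proteins to NF-kB. The route is needed for placodes of hair, teeth and sweat glands, and its loss causes hypohidrotic ectodermal dysplasia in people and the tabby (Eda), downless (Edar) and crinkled (Edaradd) mice. Tnfrsf19 (Troy) is a related receptor found in skin appendages, in stem cells of several epithelia and in the nervous system.

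The deposited lists had 82649 (replicate 1) and 81232 rows (replicate 2) for forelimb, 55391 and 86219 for hindlimb and 151077 for forebrain. Read totals are not in the lists, so the depth of each library is unknown. A region without a peak is one where no peak was called at the authors' threshold. In mixed tissue, fewer open cells and less open chromatin per cell cannot be told apart. Among markers of the labelled tissues, 10 surface ectoderm genes had 165 regions, of which 17 (10.3%) were called in all 4 ectoderm libraries but not in forebrain, and 37 (22.4%) in forebrain alone. The 10 forebrain genes had 154, with 2 (1.3%) and 78 (50.6%) of these kinds. Over all regions assigned to protein-coding genes the shares were 2.35% and 32.1%. Of 5 surface ectoderm markers with a start in the table, 4 had a peak there in each forelimb library, 3 and 4 in those of hindlimb and 3 in forebrain, and the keratin gene Krt14 had none in any library. A peak at an annotated start was called in forebrain for 9 of the 9 forebrain markers that had one in the table, and in each ectoderm library for 3 of them. Of 5 mesenchyme markers with a start in the table, 4 and 2 did so in the forelimb libraries, 1 and 2 in those of hindlimb and 5 in forebrain. Mesenchyme genes had 2 ectoderm-only regions of 126 (1.59%) over 7 genes, and melanocyte genes 3 of 62 (4.84%, all near Dct) over 4. Endothelial and blood genes had 0 of 110 over 5. The part of such cells in the results was not tested.

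All 5 genes had a peak at an annotated start in every library, which was the case for 49.6% of the 17492 protein-coding genes with a start in the table used. That table was the RefSeq promoter table (GRCm38.p6, the assembly of mm10) that held 6 starts for the 5 genes, 2 of them in Tnfrsf19. The promoter windows, from 250 bases before to 50 after the start and read 5′ to 3′ along the gene, are shown for the 5 starts at which summits fell inside the window. Capitals mark the stretch between the outermost summits of the libraries, so that they show which bases carried the strongest signal. They lie at chrX:99975356-99975655 (Eda, plus strand), chr10:58675647-58675946 (Edar, minus), chrX:97377160-97377459 (Eda2r, minus), chr14:61037938-61038237 (Tnfrsf19, inner start, minus) and chr13:12520401-12520700 (Edaradd, minus).
Eda: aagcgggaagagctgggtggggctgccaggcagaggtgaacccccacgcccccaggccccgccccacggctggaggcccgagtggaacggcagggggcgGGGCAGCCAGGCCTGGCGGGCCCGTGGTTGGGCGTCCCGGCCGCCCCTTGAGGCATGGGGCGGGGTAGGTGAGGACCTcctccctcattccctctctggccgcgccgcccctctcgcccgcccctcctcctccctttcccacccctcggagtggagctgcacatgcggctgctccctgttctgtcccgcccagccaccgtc
Edar: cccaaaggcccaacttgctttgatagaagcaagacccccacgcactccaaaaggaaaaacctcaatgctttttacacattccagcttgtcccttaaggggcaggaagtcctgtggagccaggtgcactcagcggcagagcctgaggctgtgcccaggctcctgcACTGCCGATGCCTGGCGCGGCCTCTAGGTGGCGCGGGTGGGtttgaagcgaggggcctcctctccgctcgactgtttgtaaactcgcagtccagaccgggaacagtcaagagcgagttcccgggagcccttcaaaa
Eda2r: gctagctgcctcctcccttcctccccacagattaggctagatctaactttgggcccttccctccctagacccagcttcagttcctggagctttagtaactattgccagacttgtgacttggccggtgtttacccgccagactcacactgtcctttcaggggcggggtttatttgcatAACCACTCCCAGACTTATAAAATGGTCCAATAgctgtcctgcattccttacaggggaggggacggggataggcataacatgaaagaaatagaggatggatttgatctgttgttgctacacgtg
Tnfrsf19, inner start: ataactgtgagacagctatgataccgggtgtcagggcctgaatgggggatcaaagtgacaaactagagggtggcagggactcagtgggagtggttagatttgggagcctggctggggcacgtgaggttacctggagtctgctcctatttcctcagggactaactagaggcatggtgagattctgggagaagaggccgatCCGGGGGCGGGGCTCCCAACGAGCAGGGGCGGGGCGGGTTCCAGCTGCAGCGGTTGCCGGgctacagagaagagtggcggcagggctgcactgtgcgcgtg
Edaradd: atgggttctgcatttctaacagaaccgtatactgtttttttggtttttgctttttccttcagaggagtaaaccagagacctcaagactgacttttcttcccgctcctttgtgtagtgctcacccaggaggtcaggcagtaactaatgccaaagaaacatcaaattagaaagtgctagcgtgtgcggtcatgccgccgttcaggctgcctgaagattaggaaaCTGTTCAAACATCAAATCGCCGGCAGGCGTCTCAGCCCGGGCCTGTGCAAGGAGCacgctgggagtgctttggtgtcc

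The summits of different libraries fell close together on these sequences. At Eda they spanned 78 bases, from 151 to 74 bases before the start. At Edar they spanned 41 bases, from 86 to 46 before it, and at Eda2r 32 bases, from 73 to 42 before it. Those of Edaradd straddled the start of the promoter table (12520450), from 28 bases before to 26 after, over 55 bases. The gene coordinates used for assignment place this end of Edaradd at 12520535, so that these summits lie inside the gene by them. At Eda2r the start was 97377209 and the gene end 97377234, and the summits lay before both. The 4 libraries with a peak at the inner Tnfrsf19 start had summits from 51 bases before to 8 after it. At the upstream Tnfrsf19 start, in contrast, the strongest summits lay 307 to 337 bases inside the gene in all 5 libraries, outside the promoter window.

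The windows differed in base composition. G and C made up 74.3% of the Eda window, 58.7% of Edar, 60.7% of the inner Tnfrsf19 window, 51.0% of the upstream one, 50.3% of Eda2r and 49.3% of Edaradd, against a median of 56.3% over 21238 windows of protein-coding genes. The capitals held 80% G and C at the inner Tnfrsf19 start and 37.5% at Eda2r. Motifs were searched on both strands as letters. The SP/KLF motif GGGCGG occurred in the windows of Eda, Eda2r and the inner Tnfrsf19 start, and in 46.2% of all windows. Eda held 7 matches, 3 of which touched the capitals. All 3 matches at the inner Tnfrsf19 start lay in the capitals, and 2 of these shared a base. A TATA box, TATAAA, lay 58 to 53 bases before the Eda2r start, inside the capitals, and occurred in 12.6% of all windows. The TEAD motif GGAATG occurred in Eda, Edar and Eda2r outside the capitals and in 13.6% of all windows. At Eda its match overlapped 2 matches of the letters CCCTC, which were searched for CTCF. This short string was held by 69.6% of windows, and a match does not mark a CTCF site. The TCF/LEF motif CTTTGA was found in Edar and the inner Tnfrsf19 window (14.4% of all), the AP-2 motif GCCNNNGGC in Edar (19.9%) and the homeodomain motif TAATTA in the upstream Tnfrsf19 window (4.54%). NF-kB (9.25% of all windows), p53 family (7.37%), GRHL AACNNGTT (4.05%) and AP-1 TGANTCA (6.99%) letters were in none of the 6 windows.

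Ranked by −log10 p, the start of the ligand gene carried the first peak of the 5 genes in every list. The Eda start peak had a fold enrichment over local background of 11.9 (replicate 1) and 10.7 (replicate 2) in the forelimb lists, 10.4 and 15.4 in those of hindlimb and 14.8 for forebrain. By fold it was exceeded in forelimb replicate 2 by an Eda2r region with 11.3, described later. Fold enrichment and −log10 q are the authors' values for each peak in its own list, and are not compared between lists. Among all rows of its list, by −log10 p, the Eda start lay at percentile 96.4 and 95.0 of the forelimb lists, 96.6 and 97.8 of those from hindlimb and 97.2 for forebrain. Since the lists differ in length, such percentiles place a peak within its list and show no change between lists.

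Among the receptors, the Edar start had a fold of 10.7 and 8.18 in the forelimb lists, 4.6 and 7.14 in those of hindlimb and 4.47 for forebrain. It lay at percentile 94.7 and 92.1 of the forelimb lists, 81.9 and 85.7 of the hindlimb lists and 78.7 of the forebrain list. In forelimb replicate 1 it ranked just below the Eda start among the 5 genes. In forebrain 2 other Edar peaks, described later, stood above it. The Eda2r start had a fold of 10.7 and 7.53 in the forelimb lists, 8.58 and 9.76 in those of hindlimb and 11.8 for forebrain. A second summit in the same region, 0.58 to 0.71 kb from the first, accompanied it in every library. Its percentiles ran from 85.2 in forelimb replicate 2 to 91.9 in hindlimb replicate 1, with 89.0 in forebrain.

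Tnfrsf19 had peaks at both of its starts. The upstream start had a fold of 9.72 and 7.12 in the forelimb lists, 3.85 and 9.92 in those of hindlimb and 13.3 for forebrain. The inner start, 8.87 kb further into the gene, had 6.42 and 4.68 in the forelimb lists, no called peak in hindlimb replicate 1, 6.09 in hindlimb replicate 2 and 11.8 for forebrain. Both starts lie within Gm41167, an annotated long non-coding gene. In each of the 4 lists with both peaks, the upstream one ranked higher. The adaptor gene Edaradd had a start peak with a fold of 9.6 and 9.0 in the forelimb lists, 4.85 and 10.1 in those of hindlimb and 10.1 for forebrain. Its percentiles were 92.5, 93.1, 84.0, 93.6 and 89.7 in the same order.

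**Figure D1:**
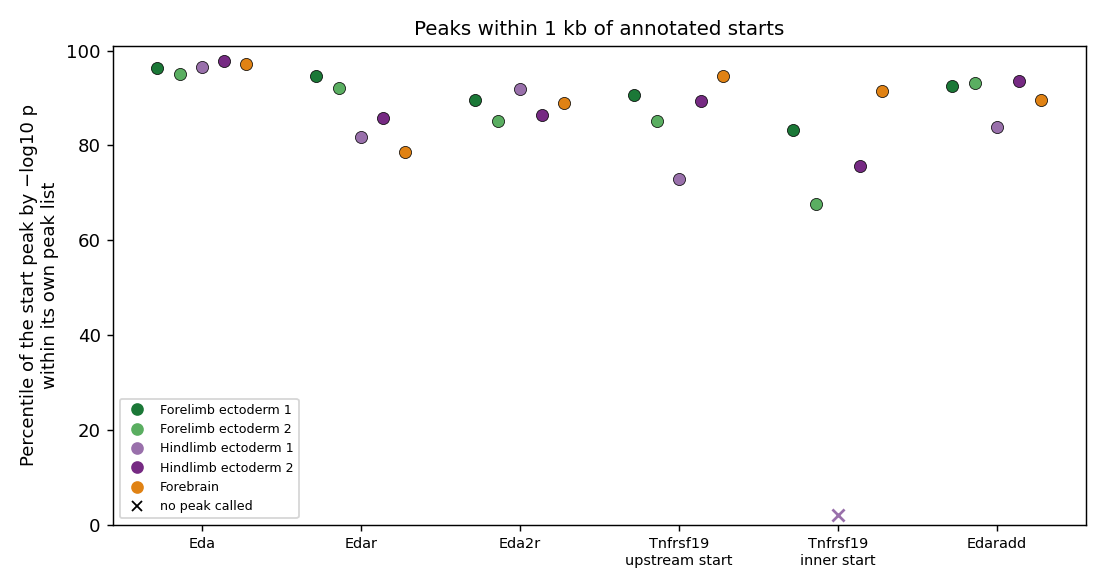
Percentile of the peak at each of the 6 annotated starts (within 1 kb) among all rows of its own list, ranked by the authors' −log10 p, with 1 point per library and a cross where no peak was called. The Eda start lay between 95.0 and 97.8 in all 5 lists, and the inner Tnfrsf19 start had no peak in hindlimb replicate 1.

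Of the 67 regions, 5 were ectoderm-only, meaning called in each of the 4 ectoderm lists but not in that of forebrain. That is 7.46% (95% Clopper-Pearson interval 2.47 to 16.6), against 2.35% of all assigned regions. Forebrain-only regions, called there but in 0 of the 4 ectoderm lists, numbered 16, or 23.9% (14.3 to 35.9), against 32.1%. Another 9 were called in all 5 libraries, or 13.4% (6.33 to 24.0), against 8.15%. A peak in a single library was found in 37 regions, or 55.2% (42.6 to 67.4), against 68.7%, and 16 of these were the forebrain-only ones. The intervals cover counting error only, and regions of 1 gene are not independent. No test was made, because with 4 ectoderm libraries and 1 forebrain library an exact permutation test cannot go below p = 0.2.

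The 3 genes Tnfrsf19, Eda2r and Edaradd held the ectoderm-only regions, with 3, 1 and 1, and Eda and Edar had 0. Over all protein-coding genes with a region, 16% had at least 1. That share is not matched for the number of regions. The median was 5 regions per gene, against 24 at Edar, 17 at Tnfrsf19, 12 at Edaradd, 9 at Eda and 5 at Eda2r. Leaving out Tnfrsf19, the other genes had 2 ectoderm-only regions of 50 (4.0%). Leaving out hindlimb replicate 1, the shortest list, the 5 genes had 6 of 63 and the share of all assigned regions was 5.18%. With all lists cut to the length of the shortest, they had 5 of 41 against a share of 5.26%. Of the 6 regions at starts, 5 had a peak in every library and 0 were specific to a tissue. The ectoderm-only regions lay inside genes (3), upstream (1) and downstream (1). The forebrain-only ones lay inside (9) and upstream (7).

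**Figure D2:**
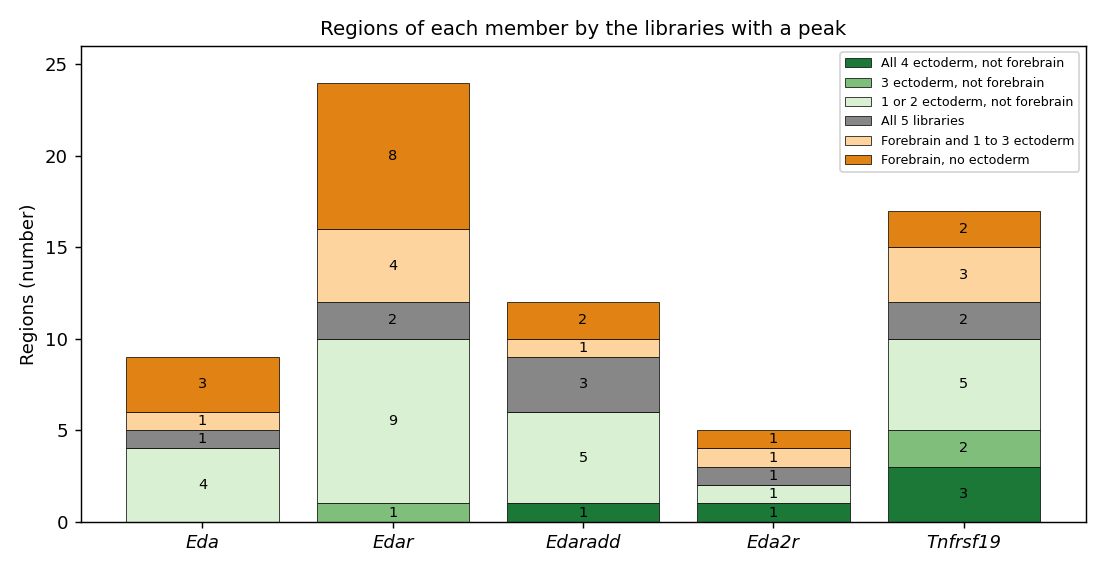
Number of regions at each of the 5 genes, stacked by the libraries that had a peak there (green for ectoderm without forebrain, grey for all 5, orange for forebrain with 0 to 3 ectoderm libraries). Tnfrsf19 had 3 ectoderm-only and 2 forebrain-only regions of 17, and Edar had 0 and 8 of 24. Over all assigned regions the shares were 2.35% and 32.1%.

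By −log10 p, the first 2 of the ectoderm-only regions in every ectoderm list were those of Eda2r and Edaradd. By fold, the upstream Tnfrsf19 region exceeded that of Edaradd in both forelimb lists. The Eda2r region, chrX:97327836-97328397, lies 5.75 kb beyond the far end of the gene and 49.1 kb from its start, outside any annotated gene. Its fold was 11.8 and 11.3 for the forelimb replicates, 7.09 and 14.45 for those of hindlimb. In forelimb replicates 1 and 2 and hindlimb replicate 2 it outranked the peak at the Eda2r start, which was the stronger one in hindlimb replicate 1. The nearest forebrain peak was 32331 bp away. Its 4 summits fell within 21 bp of each other.

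The Edaradd region, chr13:12485633-12486013, lies inside the gene, 34.6 kb from the start. The annotation used here gives no exons, so that exon and intron cannot be told apart. Its fold was 7.62 and 6.97 for the forelimb replicates, 5.68 and 11.8 for those of hindlimb, and its percentiles were 88.2, 88.7, 88.7 and 95.3 in that order. In hindlimb replicates 1 and 2 it outranked the Edaradd start peak, and in the forelimb lists it ranked below it. The summits fell within 14 bp. A forebrain peak lay 1784 bp away, at chr13:12487797-12488091, with a −log10 q of 1.79, near the authors' threshold.

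Tnfrsf19 had its ectoderm-only regions on both sides of the start. The upstream one, chr14:61061537-61062065, lies 15.0 kb before the start, within the long non-coding gene Gm41168. Its fold was 8.30 and 7.59 for the forelimb replicates, 4.62 and 7.63 for those of hindlimb, with summits within 14 bp. Inside the gene, chr14:60988213-60988680 lies 58.5 kb from the start, with a fold of 5.52 and 3.52 for forelimb, 3.69 and 4.08 for hindlimb. Near the far end, chr14:60966050-60966688 lies 80.4 kb from the start, with 4.76 and 4.64 for forelimb, 4.6 and 4.94 for hindlimb. The nearest forebrain peaks were 4746, 16331 and 38323 bp from these regions. Both regions inside the gene ranked below the upstream one in every ectoderm list, at percentiles of 45.5 to 79.8, against 81.6 to 88.2. Within each ectoderm list, the median −log10 q of the 5 ectoderm-only regions was 27.4 and 26.8 for forelimb, 11.7 and 34.2 for hindlimb, against 12.5, 14.4, 6.92 and 28.5 over all 4301 such regions near genes.

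**Figure D3:**
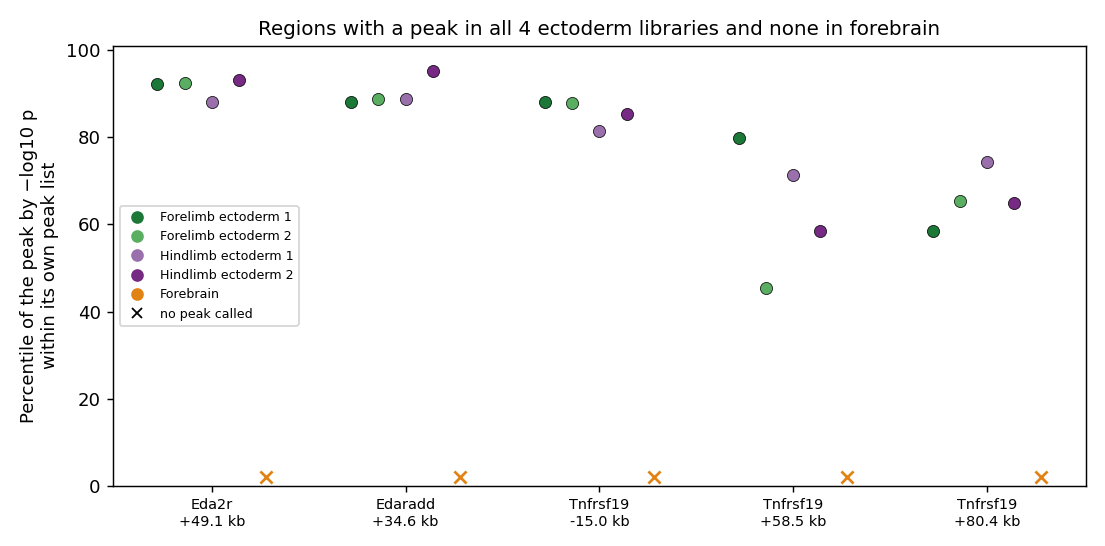
Percentile of the peak within its own list, by −log10 p, at the 5 ectoderm-only regions, labelled by gene and distance from the start in kb along the gene, with 1 point per library and a cross where no peak was called. The Eda2r, Edaradd and upstream Tnfrsf19 regions lay at percentile 81.6 or higher in all 4 ectoderm lists, and forebrain had no peak at any of them.

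A further 3 regions were called in 3 of the ectoderm lists but not in that of forebrain. At Tnfrsf19 these were chr14:61057037-61057458, 10.3 kb upstream, without a peak in forelimb replicate 2, and chr14:61074805-61075229, 28.2 kb upstream, without one in hindlimb replicate 1. Both lie in Gm41168, as does the upstream ectoderm-only region. The first lies 246 bp from a forebrain peak with a −log10 q of 5.05. At Edar, chr10:58641683-58642202 lies 33.9 kb inside the gene and had no peak in forelimb replicate 1. Its −log10 q was 13.1 in forelimb replicate 2 and 4.59 and 15.9 in hindlimb replicates 1 and 2. A neighbouring region 0.32 kb away, chr10:58640496-58641364, had peaks in forelimb replicate 1, hindlimb replicate 2 and forebrain, so that each of the 5 libraries had a peak in the pair. Without forelimb replicate 1, Edar gained 1 ectoderm-only region.

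A peak in 3 or 4 ectoderm libraries was found in 19 of the 67 regions (28.4%), against 17.3% of all assigned regions. At Tnfrsf19 these were 9 of 17 (52.9%), with 4 of 12 at Edaradd, 2 of 5 at Eda2r, 3 of 24 (12.5%) at Edar and 1 of 9 at Eda. Of the 19 regions, 11 also had a forebrain peak. The 3 that lacked, among the ectoderm libraries, hindlimb replicate 1 alone were all at Tnfrsf19. Of these, chr14:61074805-61075229 also lacked a forebrain peak. Without hindlimb replicate 1, the Tnfrsf19 regions shared by all libraries numbered 4, and 2 with it.

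Besides the starts, 4 regions had a peak in all 5 libraries. At Edar, chr10:58651305-58653004 lies 23.4 kb inside the gene. Its strongest peak had a −log10 q of 12.2 and 5.72 in the forelimb lists, 17.7 and 53.5 in those of hindlimb and 21.7 for forebrain. In both hindlimb lists it outranked the Edar start, and in the forelimb and forebrain lists it did not. Forebrain had 4 summits in this region. The strongest of them lay up to 482 bp from the strongest of each ectoderm library, which fell within 57 bp of each other. Distances of the weaker summits were not measured. With summits joined within 250 bp, Edar still had 2 regions shared by all 5 libraries. At Tnfrsf19, chr14:61012204-61013221 lies 34.3 kb inside the gene, with a −log10 q of 21.6 and 11.9 for forelimb, 12.7 and 45.1 for hindlimb and 71.9 for forebrain. At Edaradd, chr13:12541758-12542951 lies 21.8 kb upstream, with 13.54 and 25.2 for forelimb, 13.2 and 31.4 for hindlimb and 15.3 for forebrain. The other Edaradd region, chr13:12503171-12503808, lies 16.9 kb inside the gene and was weaker, with 3.80 and 3.20 for forelimb, 5.34 and 13.6 for hindlimb and 15.8 for forebrain.

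Most forebrain-only regions were weak peaks. Their −log10 q ran from 1.68 to 34.9 with a median of 3.52, against a median of 5.63 over all 58628 forebrain-only regions near genes, and 5 of the 16 reached 5. The strongest was inside Eda2r, chrX:97360728-97361396, 16.1 kb from the start, with a fold of 9.61 and a −log10 q of 34.9. It was the 1 forebrain-only region that remained when all lists were cut to equal length, where 14.7% of all assigned regions were forebrain-only. At Tnfrsf19, chr14:61043628-61044103, 3.08 kb inside the gene, had a −log10 q of 13.0, and chr14:61056589-61056791, 9.83 kb upstream, had 5.05. At Edar the strongest were chr10:58714982-58715262 (39.5 kb upstream, −log10 q 7.11), chr10:58739615-58739962 (64.1 kb upstream, 4.96) and chr10:58659228-58659608 (16.2 kb inside, 4.93). Edaradd had chr13:12539686-12540175 (19.5 kb upstream, 5.53), besides the weak one named earlier. Those of Eda all lay inside the gene, at chrX:100395042-100395241 (−log10 q 3.50), chrX:99993936-99994206 (2.75) and chrX:100394424-100394628 (1.90).

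The strong forebrain peaks of Edar were not forebrain-only by this rule, because the interval of each overlapped that of a peak in 1 ectoderm library. The region chr10:58672575-58673868, 2.35 kb inside the gene, had an ectoderm peak in hindlimb replicate 2 alone, with a fold of 3.86 and a −log10 q of 9.68. In forebrain its fold was 10.0 and its −log10 q 134. At the far end of the gene, chr10:58600980-58601902 had a fold of 3.12 and a −log10 q of 3.83 in forelimb replicate 2, and 8.98 and 74.3 in forebrain. In the forebrain list both outranked the Edar start, whose −log10 q there was 30.7. The strongest summits lay 381 and 488 bp apart between the tissues. With summits joined within 250 bp in place of intervals, Edar had 12 forebrain-only regions of 29, against 8 of 24 with intervals. The share over all assigned regions was 34.6% with summits and 32.1% with intervals. At Edaradd, chr13:12473617-12474282, 46.5 kb inside the gene, had a −log10 q of 6.64 in forelimb replicate 2, 10.8 in hindlimb replicate 2 and 51.2 in forebrain. At Eda2r, chrX:97431328-97431863, 54.5 kb upstream, had 4.08, 5.43 and 47.1 in the same libraries.

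No region of the 5 genes separated the limbs. Regions with a peak in both forelimb and neither hindlimb library numbered 0, and the reverse 0, against 1.98% and 0.672% of all assigned regions. Whether forebrain had a peak played no part in these counts. A count of 0 among 67 allows a share of up to 4.48% (3 counts of 67), and the upper bound of the 95% Clopper-Pearson interval is 5.36%. Both background shares lie under these bounds, so that a difference from them was not detectable at this number of regions. An exact permutation test of 2 against 2 libraries cannot go below p = 0.333, and none was run. The counts rest on requiring both replicates. With 1 forelimb library, 6 of 60 regions were forelimb-only and 1 hindlimb-only without forelimb replicate 1, against 13.4% and 1.33% of all assigned regions. Without forelimb replicate 2 the counts were 9 and 1 of 63, against 13.8% and 1.27%. With 1 hindlimb library they were 0 and 7 of 63 without hindlimb replicate 1, against 2.42% and 14.2%. Without hindlimb replicate 2 they were 3 and 4 of 62, against 8.41% and 11.1%. A peak in 1 ectoderm library and nowhere else was found in 21 regions, with a −log10 q of 1.49 to 7.87 and a median of 3.09. These divided into 7 and 4 in forelimb replicates 1 and 2, and 4 and 6 in hindlimb replicates 1 and 2.

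The genes differed in how densely their surroundings carried regions. Eda spans 425 kb on the X chromosome (99975606 to 100400760), and 9 regions were assigned over a stretch of 489 kb, or 1.84 per 100 kb. Eda2r (97333837 to 97377234 on the X) had 5 over 243 kb, or 2.05 per 100 kb. The autosomal genes had more, at 15.5 for Edar (58600780 to 58675696 on chromosome 10, 24 regions), 16.0 for Edaradd (12471209 to 12520535 on chromosome 13, 12 regions) and 10.8 for Tnfrsf19 (60963834 to 61046855 on chromosome 14, 17 regions). All protein-coding genes together had 9.57 per 100 kb. Of the 8 Eda regions away from its start, 0 had a peak in more than 1 ectoderm library. The strongest of them in an ectoderm list, chrX:100392370-100392670, lies 417 kb inside the gene, with a −log10 q of 12.4 in forelimb replicate 1 and 5.19 in forebrain. Upstream of Edar lay 9 regions, of which 4 had a peak in 1 ectoderm library alone and 5 were forebrain-only. At any position, Edar had 8 forebrain-only regions of 24. Over all assigned regions, 32.1% were forebrain-only and 68.7% had a peak in a single library.

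**Figure D4:**
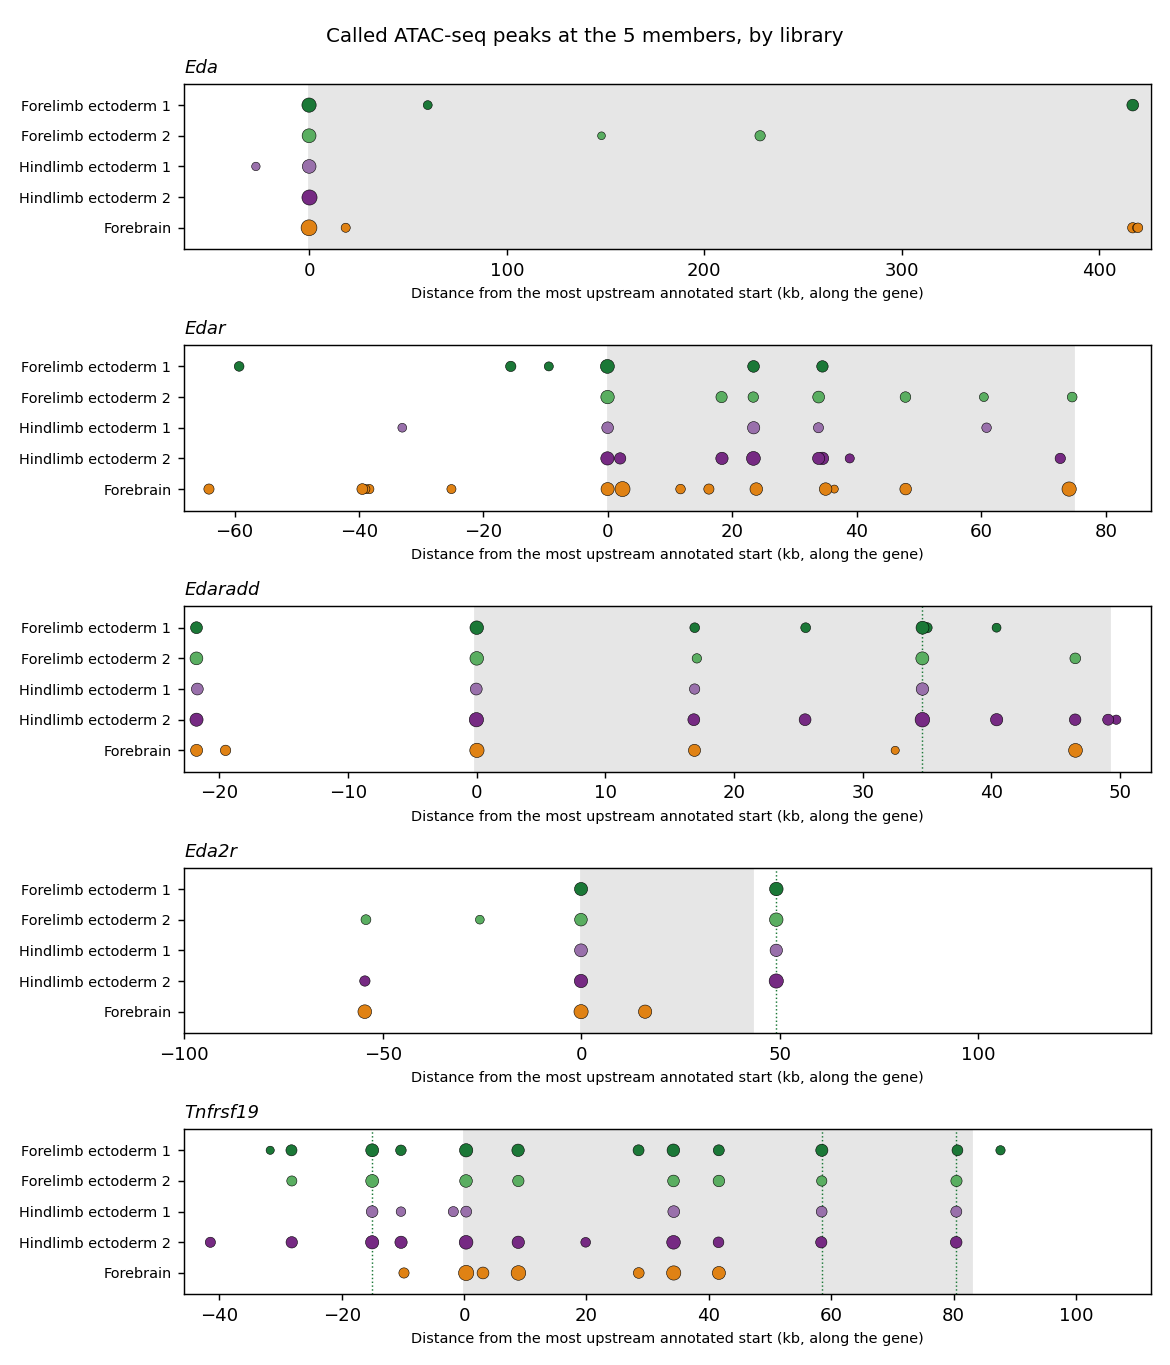
Strongest called peak of each library in each region of the 5 genes, by distance from the most upstream annotated start in kb along the gene (scales differ between panels). Point area grows with the logarithm of the authors' −log10 q, grey marks the gene, dotted lines mark ectoderm-only regions and each panel spans the stretch assigned to its gene. Every library has a point at each most upstream start, and each of the 8 other Eda regions has a point in at most 1 ectoderm library.

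The borders of these stretches followed from the neighbouring genes except at Eda2r, where the 100 kb limit itself applied. There the outermost regions inside were 5.75 kb downstream and 54.2 kb upstream of the gene. The first region outside on the upstream side lay 282 kb from the gene, with a peak in both forelimb libraries and hindlimb replicate 2. On the downstream side it lay 192 kb away, with a peak in forebrain alone. The nearest outside region of each tissue was not sought. The first region beyond the upstream border of Eda was chrX:99858741-99859422, an ectoderm-only one. It lies 116 kb from Eda, past the 100 kb limit, and is nearer to Tmem28. At Tnfrsf19, the border with Mipep left out chr14:60917194-60917481, with a peak in both forelimb libraries and hindlimb replicate 2, 46.5 kb beyond the end of Tnfrsf19. At Edar, chr10:58739615-58739962 was the last region inside towards Sh3rf3, and a region 68.2 kb away with a peak in hindlimb replicate 2 alone was the first outside.

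Genes with the most similar pattern were taken by the Euclidean distance between the shares of a gene's regions with a peak in each of the 5 libraries, among genes with a region number within 20%. For Edar, with peaks of the forelimb libraries in 25.0% and 29.2% of 24 regions, of hindlimb in 20.8% and 33.3% and of forebrain in 58.3%, the closest of 1155 genes were Lamb1 (distance 0.0486), Enc1 (0.0498) and Slc16a10 (0.0505), against a median of 0.221. For Tnfrsf19, with 70.6% and 47.1% of 17 regions for forelimb, 41.2% and 64.7% for hindlimb and 41.2% for forebrain, they were Hmgb1 (0.144), Diaph1 (0.154) and Vgll3 (0.178) of 1740, against a median of 0.614. Edaradd was closest to Ugcg (0.0833), Ndufaf6 (0.119) and Arl3 (0.132) of 2082, and Eda to Blk (0.111), Ttc9 (0.111) and Gm35751 (0.112) of 1718. Eda2r, with 5 regions, shared its exact shares with Alg13 and Ppm1f and came next to Fzd6 (0.156), of 3774 genes.

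Other genes of the pathway and of appendage placodes, 55 in all, held 596 regions. Ectoderm-only regions numbered 19 (3.19%, against 2.35% of all assigned regions), regions shared by all 5 libraries 52 (8.72%, against 8.15%) and forebrain-only ones 176 (29.5%, against 32.1%), so that these shares lay near those of all regions. An ectoderm-only region was assigned to 15 of the 55 genes and a forebrain-only one to 41, against 16% and 59.6% of all protein-coding genes with a region. These shares of genes are not matched for the number of regions per gene. Limb-only regions numbered 12 in forelimb and 9 in hindlimb, of the 596, against 1.98% and 0.672% of all assigned regions. The 12 adaptors and kinases had 2 ectoderm-only and 33 forebrain-only regions over 119, both ectoderm-only ones at Traf3, a TRAF protein that restrains the alternative NF-kB route. The 12 NF-kB factors and inhibitors had 2 and 29 over 102, the ectoderm-only ones at Nfkb1 and Rel, which encode NF-kB subunits. Ligand relatives and processing genes, 6 in all, had 2 and 16 over 47, with 1 each at Col17a1, a collagen of the hemidesmosome, and Tnfsf11, the ligand RANKL. The 25 placode genes had 13 and 98 over 328. Of these, the Wnt ligand gene Wnt10a had 2 ectoderm-only and 2 forebrain-only regions, Pthlh, which encodes a parathyroid hormone relative, had 2 and 6, and Lef1, a nuclear partner of beta-catenin, had 2 and 15. Shh, a hedgehog ligand gene active in placodes, had 0 and 7. A start peak in all 5 libraries was found for 8 of 10 adaptors and kinases with a start in the table, 7 of 9 NF-kB genes, 0 of 6 ligand relatives and 5 of 13 placode genes, against 49.6% of all genes with a start there.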

How the data were processed

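The 5 ATAC-seq libraries each had 1 deposited peak list, so peaks were called per library and replicates were not pooled. Tools named in the submitters' processing notes are MACS2 2.1.1.20160309, Bowtie2 2.3.5, cutadapt 1.16, bedtools and Picard, with the mm10 build. Read shifting and MACS2 settings are not given in the sources used here. Per row, the authors deposited an interval, a summit, a score that was not analysed, the fold enrichment of the summit over local background, and −log10 of the p-value and of the q-value. The smallest deposited −log10 q was 1.30 to 1.31 in every list, the value of a q of 0.05. The lists hold no read totals, so depth is unknown.

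Rows outside the autosomes, X and Y were dropped and the others kept, each with its own summit, in Python 3.11.15 with pandas 2.3.3, numpy 2.4.6 and scipy 1.17.1. Genes were the 21887 protein-coding entries of a RefSeq table (GRCm38.p6) without strand or exons, and starts and strands came from a RefSeq promoter table, with which 17492 of these genes could be matched. A start peak was a summit within 1 kb of a start. A library counted as having a peak wherever 1 of its intervals fell into the region. The joining of intervals and the assignment to genes were tested on simulated data.

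The members and gene lists were chosen with earlier results of these data known. Regions named one by one were those at starts, all ectoderm-only, limb-only and fully shared regions, those with a peak in 3 ectoderm libraries and not forebrain, and up to 3 forebrain-only regions per gene with the highest −log10 p. The strong forebrain peaks of Edar, Edaradd and Eda2r that overlap 1 or 2 ectoderm peaks were chosen after their values were seen. So were the regions outside the borders and the named genes of the other lists. Alternatives were a −log10 q of 5 or more, lists of equal length, assignment within 20 kb, summits joined within 250 bp in place of intervals, and leaving out each ectoderm library. Whether replicates are separate embryos is not given in the labels.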

Additional observations from a re-analysis of the deposited data

How the results depend on the processing

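The 5 ectoderm-only regions, the 16 forebrain-only and the 9 shared ones stayed within 1.5 times their count in all alternatives, apart from forebrain-only regions at a −log10 q of 5 or more (6) and with lists of equal length (1). Ectoderm-only counts were 5 or 6 and shared counts 8 to 11. Hindlimb-only regions, 0 as reported, numbered 1 at a −log10 q of 5 or more and 1 with lists of equal length, both times at Edaradd. At a −log10 q of 5 or more this was chr13:12503171-12503808, a region called in all 5 libraries. Its forelimb values of 3.80 and 3.20 fell below 5 and its forebrain value was 15.8, so that it was not particular to hindlimb. Forelimb-only regions, also 0, numbered 1 with summits joined within 250 bp, again at Edaradd. Leaving out 1 ectoderm library gave 0 to 9 forelimb-only and 1 to 7 hindlimb-only regions, since that limb was then judged by 1 list. The shares of all assigned regions rose too, to at most 13.8% forelimb-only and 14.2% hindlimb-only. Of 200 counts by gene, class and alternative, 31 were labelled as moved by more than 1.5 times and 169 were not. All limb-only counts by gene and the ectoderm-only counts of Eda and Edar were 0 as reported, where no ratio exists. Such a count was labelled as moved when it rose above 0 and as unmoved when it stayed at 0. The tally is therefore no measure of stability. No paired analysis was possible because presence or absence of called peaks was compared without a fit, with 2 libraries per limb and 1 of forebrain. The number of libraries and the unknown depth limit every absence: a weak peak in a short list, above all that of hindlimb replicate 1, can go uncalled.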
